A study of Mus musculus with 5 samples.

Results

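Known intergenic lncRNA loci are loci classed by the authors as lying between genes, with long non-coding RNAs that they list as already known. They were taken from a table of assembled lncRNA transcripts, as the loci at which every transcript had the class intergenic and every transcript was listed by the authors as known. This gave 2432 of 16356 lncRNA loci, with 5233 transcripts in all, and counts were summed over the transcripts of a locus. The libraries came from testes of male C57BL/6J mice, 10 weeks old when obtained. Mice received saline (control, 2 libraries) or triptolide given into the stomach at a daily dose of 50 µg/kg (3 libraries), and testes were taken at 35 days. The labels give 6 mice per group without saying how many mice went into a library. The p-values therefore rest on the spread among libraries alone, part of which may be technical. Triptolide is a diterpenoid of the vine Tripterygium wilfordii that blocks transcription through TFIIH. In the count columns 2 triptolide libraries share a header. They are called triptolide A and B, beside triptolide 3.

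Long non-coding RNAs are transcripts with no long reading frame. Intergenic ones have their own promoters, are capped and spliced like mRNAs, and tend to be made in few cell types. The testis is known for transcribing more of them than most tissues, mainly in meiotic and round spermatid cells, and for most of them no function is known. A few have been studied closely, among them regulators of imprinting, of the X chromosome and of the response to p53.

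Promoters are printed for the 3 loci that rose and the 3 that fell with the highest levels, among the loci named by rule that a RefSeq promoter table (build GRCm38.p6) holds. Each run covers 250 bases before to 50 bases after the RefSeq start, and that start lies within 1000 bases of the start of the assembled locus. Capitals mark matches on either strand to 6 motifs: TATAAA for the TATA-binding protein, CCAAT for the factor NF-Y, TGACG as the core of the cAMP response element, GGGCGG for the GC box of SP1, CACGTG for the E box and GTTGCC for RFX factors. The full cAMP response element was counted too, and the NRF1 motif was searched for likewise and not found in these 6. The MYB core AACNG, present in 80.3% of all promoters of this length, is not capitalised. The first 3 belong to loci that rose and the others to loci that fell.
Gm27211 (chr9:73192228-73192527, plus strand): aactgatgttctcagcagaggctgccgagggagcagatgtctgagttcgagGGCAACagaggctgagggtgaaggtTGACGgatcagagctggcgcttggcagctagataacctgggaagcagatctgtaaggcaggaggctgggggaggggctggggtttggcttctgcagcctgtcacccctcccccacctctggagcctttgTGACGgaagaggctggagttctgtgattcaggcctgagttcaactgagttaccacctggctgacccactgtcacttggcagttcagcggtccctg
Lncpint (chr6:31218425-31218724, minus strand): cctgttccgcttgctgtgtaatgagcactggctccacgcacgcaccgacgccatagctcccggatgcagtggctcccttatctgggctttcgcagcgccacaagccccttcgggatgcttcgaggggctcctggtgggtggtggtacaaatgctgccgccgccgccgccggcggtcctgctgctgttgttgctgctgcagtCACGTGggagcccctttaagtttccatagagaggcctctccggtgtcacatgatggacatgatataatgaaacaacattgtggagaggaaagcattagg
Firre (chrX:50635272-50635571, minus strand): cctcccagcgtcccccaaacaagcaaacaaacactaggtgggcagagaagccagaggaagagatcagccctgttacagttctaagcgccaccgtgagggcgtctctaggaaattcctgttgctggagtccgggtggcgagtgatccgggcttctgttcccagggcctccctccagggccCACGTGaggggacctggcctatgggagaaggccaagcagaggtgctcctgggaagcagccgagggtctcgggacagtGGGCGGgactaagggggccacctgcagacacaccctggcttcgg
1700029M20Rik (chr4:135626405-135626704, plus strand): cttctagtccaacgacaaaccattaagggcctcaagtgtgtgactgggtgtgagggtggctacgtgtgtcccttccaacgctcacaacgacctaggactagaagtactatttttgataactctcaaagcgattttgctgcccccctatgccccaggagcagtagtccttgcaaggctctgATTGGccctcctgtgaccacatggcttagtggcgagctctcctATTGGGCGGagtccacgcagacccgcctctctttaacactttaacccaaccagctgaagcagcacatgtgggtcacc
Cep83os (chr10:94688564-94688863, minus strand): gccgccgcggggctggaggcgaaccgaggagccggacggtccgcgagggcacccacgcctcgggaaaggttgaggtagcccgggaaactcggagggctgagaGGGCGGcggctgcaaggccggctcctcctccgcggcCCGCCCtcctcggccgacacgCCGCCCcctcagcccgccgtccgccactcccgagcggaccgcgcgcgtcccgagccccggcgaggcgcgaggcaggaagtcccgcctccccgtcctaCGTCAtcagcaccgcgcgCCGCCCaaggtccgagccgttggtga
4930463O16Rik (chr10:84488043-84488342, plus strand): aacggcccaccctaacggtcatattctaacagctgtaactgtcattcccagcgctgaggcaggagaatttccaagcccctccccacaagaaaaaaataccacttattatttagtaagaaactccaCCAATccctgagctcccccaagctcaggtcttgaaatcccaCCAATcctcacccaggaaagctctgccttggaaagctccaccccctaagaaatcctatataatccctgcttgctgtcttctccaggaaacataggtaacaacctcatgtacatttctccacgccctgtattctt
No capitalised motif stood in all 6 promoters. CG dinucleotides, which are dense in promoters of housekeeping genes, numbered 46 at Cep83os, 18 at Lncpint and 12 at Firre, against 4 at 4930463O16Rik, 6 at Gm27211 and 9 at 1700029M20Rik. An E box stood at Lncpint and Firre, and a CCAAT box at 1700029M20Rik and 4930463O16Rik. A GC box stood at Firre, 1700029M20Rik and Cep83os, and the letters TGACG at Gm27211 and Cep83os. The common MYB core stood in all but 1700029M20Rik. At 1700029M20Rik 1 of the CCAAT matches and the GC box overlap. The whole printed run of 1700029M20Rik and that of 4930463O16Rik lie inside the assembled locus, which starts at 135625765 and 84487388. A match describes letters and is not a measured site.

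In all, 773 of the 2432 loci had a promoter matched in this way. The median was 5 CG dinucleotides, against 7 over the 32851 promoters of the table. A GC box stood in 25.6% of them and in 35.7% of all promoters of the same length. At least 10 CG dinucleotides were found in 8 of 15 promoters of loci that rose, in 9 of 17 of loci that fell, in 35.3% of 331 of loci tested and not called and in 43.5% of all promoters. The GC box stood in 6 of 15 and 8 of 17, against 33.8% of the 331. The letters TGACG stood in 7 of 15 and 8 of 17, against 21.1% of the 331 and 20.8% of all promoters. The E box stood in 3 of 15 and 0 of 17, and in 7.15% of all promoters. The TATA box went the other way, with 1 of 15 and 5 of 17, and 13.6% of all promoters. A CCAAT box stood in 4 of 15 and 7 of 17 (37.4% of all), the full cAMP response element in 0 and 1 (1.79%), the NRF1 motif in 0 and 0 (0.971%), the RFX letters in 3 and 2 (12.5%) and the MYB core in 13 and 15. These counts are small, were compared after the values were seen and are given with no test.

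Every library gave a similar depth. The controls had 964886 and 1071012 lncRNA counts in total, and triptolide A, B and 3 had 947298, 1058427 and 1029547. Between 1132 and 1229 of the loci had a count in a library, and 902 had none in any. The tissue label could be set only against circRNA host genes, since the mRNA table gives transcript IDs without gene names. Of 18 germ cell markers 9 hosted circRNAs, among them Ddx4, Sycp1, Crem and Prm2, with sums of 6780 and 6851 SRPBM (back-splice junction reads scaled to library size) in control and 5290, 6963 and 4851 in triptolide, which overlap. Of 6 Sertoli cell, 5 Leydig cell and 3 endothelium and muscle markers 0 did. Of 4 macrophage and blood markers only Adgre1 did, with 17 and 0 SRPBM in the controls, and 0, 43 and 0 after triptolide. The count and FPKM columns also carry a trace of the sequenced fragments. The effective length of a transcript, its length less the mean fragment length, can be had from their ratio. Against control 1 it was 10.3 bases longer in control 2, 29.6 in triptolide A and 28.0 in triptolide 3, so fragments were shorter in these triptolide libraries. Triptolide B was not measured in this way. The part of fragment length in the differences below was not tested.

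Counts, which are not corrected for transcript length, were concentrated in a few loci. The 10 most abundant held 33.3% of the mean CPM of all 2432 loci, and the 100 most abundant held 72.4%. CPM is the count scaled to 1000000 lncRNA counts in the library. RIKEN names whose prefix stands for an adult testis clone library, a grouping made after the values were seen, covered 326 of the loci and 46.9% of their counts. Of these, 273 passed the filter on low counts, against 85 of the 283 with other RIKEN names and 318 of the 1624 with Gm names.

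Cdiptos, named for the strand opposite the phosphatidylinositol synthase gene Cdipt, was the most abundant (chromosome 7, 126971720 to 126976098). It measured 14048 and 12688 CPM in the controls and 13606, 15926 and 10762 CPM after triptolide, so the groups overlapped. 1700001L05Rik (chromosome 15, 83353753 to 83367282) measured 13117 and 11768 CPM in the controls and 9693, 9118 and 10250 CPM after triptolide. All its control libraries lay above all triptolide libraries, yet the difference did not pass (log2 fold change -0.36 ± 0.15 SE, adjusted p = 0.15, quasi-likelihood test of edgeR). Gm21221 (chromosome 5, 149790071 to 149832151) went the other way, with 7234 and 7741 CPM in the controls and 9507, 8858 and 11487 CPM after triptolide (log2 fold change 0.41 ± 0.16 SE, adjusted p = 0.12, edgeR). Its groups did not overlap, and without triptolide B it passed (log2 fold change 0.52, adjusted p = 0.036, edgeR).

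Gm26917 (chromosome 17, 39845074 to 39846245) lies 108 bases from Rn18s-rs5, a copy related to 18S ribosomal RNA, and varied most among the 8 most abundant. It measured 2818 and 8635 CPM in the controls and 5863, 4278 and 2424 CPM after triptolide. The libraries had been depleted of ribosomal RNA, and whether depletion sets this spread was not tested. Its log2 fold change was -0.46 over all libraries (adjusted p = 0.36, edgeR), and its direction rests on which control is used. It was -1.06 without control 1 (adjusted p = 1.8e-06, edgeR) and 0.61 without control 2 (adjusted p = 0.048, edgeR). Of the other abundant loci, Gm2762 (chromosome 13) averaged 9917 ± 546 CPM in the controls (SD, n = 2) and 7934 ± 516 CPM after triptolide (SD, n = 3). 1700008K24Rik (chromosome 17) averaged 6082 ± 1201 and 4616 ± 453 CPM, and Gm15104 (chromosome X) 3803 ± 394 and 3658 ± 283 CPM. Over all libraries none of these 4 passed (adjusted p of 0.14 to 0.89, edgeR). Only 1 of the 8, 1700029M20Rik, did.

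**Figure D1:**
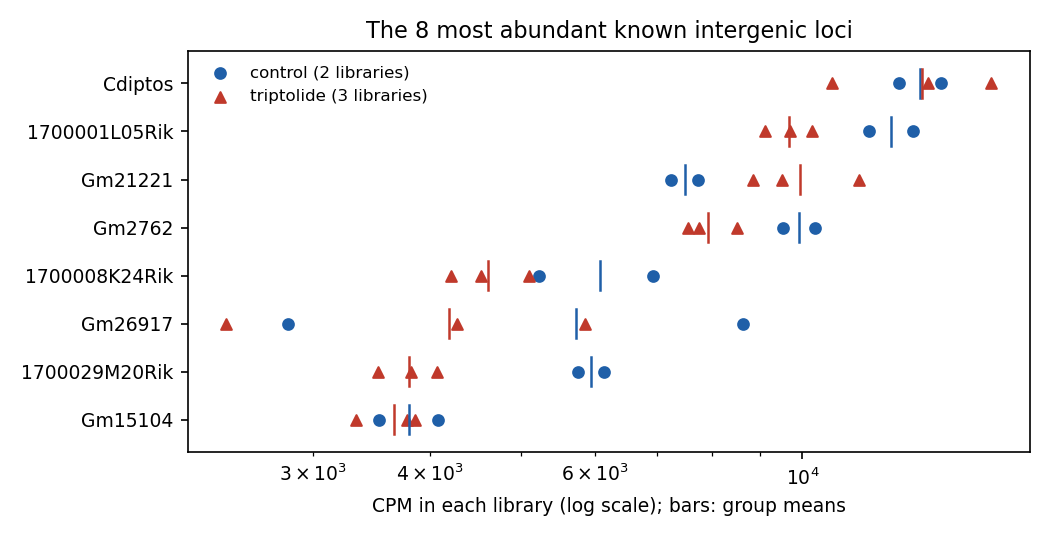
CPM of the 8 most abundant known intergenic loci in each library on a log axis, with circles for the 2 control libraries, triangles for the 3 triptolide libraries and bars for group means. Cdiptos and Gm15104 overlap between the groups, Gm26917 spreads from 2424 to 8635 CPM, and 1700029M20Rik lies lower in all 3 triptolide libraries.

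Per length the order changes. The deposited FPKM are per kilobase of effective transcript length, scaled to the lncRNA counts of the library, and were read for the controls and triptolide 1 and 3, whose headers are unique. 1700008K24Rik led with a median of 8944 (7541 to 13033) FPKM, range in parentheses, before Gm26917 with 7155 (3943 to 14458), Cdiptos with 7046 (5745 to 7605) and 1700001L05Rik with 6539 (6186 to 7492). Gm2762 followed with 5525 (4435 to 6543), Gm15104 with 3244 (2905 to 3650), 1700029M20Rik with 3003 (2309 to 3830) and Gm21221 with 389 (334 to 515). Neighbours in this order overlap in range except Gm2762 against Gm15104 and 1700029M20Rik against Gm21221. Gm21221, ranked 3 by CPM, is last here, and its leading transcript has an effective length of 22163 bases.

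The class of non-coding RNA is not settled for every locus. Of 1232 loci whose symbol is in the RefSeq gene table, 1175 are lncRNA there and 44 are protein-coding. These 44 hold 10.5% of the counts of all known intergenic loci and include Cdiptos and Gm15104. Of the 44, 21 were tested, and 1 rose and 0 fell (edgeR). The 1 was a locus that carries the symbol Fignl1, a gene of DNA repair, and does not overlap it in the table.

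Together the known intergenic loci took a slightly smaller share of lncRNA counts after triptolide. The controls gave 21.3% and 20.7%, and triptolide A, B and 3 gave 19.1%, 20.1% and 18.9%. The means differed by 1.67 percentage points, and the groups did not overlap. The two-sided exact permutation p was 0.2 over 10 assignments, where 2 against 3 libraries cannot go below 0.1. Leaving out Cdiptos gave a difference of 1.69 points and p = 0.1 in the same exact test.

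Levels are scaled to the lncRNA counts of each library, so a rise or fall is relative to the other lncRNA loci. A change shared by all lncRNA loci would not be seen. After triptolide 36 known intergenic loci rose and 29 fell of 747 tested, with an adjusted p below 0.05 in edgeR over all 6888 lncRNA loci that passed the filter. Over all those loci 5.01% rose and 2.26% fell, and 7.27% changed in either direction. The known intergenic shares were 4.82%, 3.88% and 8.70%. Their share of rises was thus near the background, and their share of falls lay above it. No test of that difference was made. The background includes the 747 loci, and among the other 6141 tested 5.03% rose and 2.07% fell. The 747 were also more abundant, with a median of 61.3 CPM against 37.3 CPM over all 6888. The part of level in the shares called was not tested. Among the 3279 new intergenic loci tested, 5.12% rose and 2.29% fell, and among the 408 known antisense loci 4.90% and 2.21%. The median log2 fold change was -0.05 over the 747, 0.00 over all 6888 and 0.01 over the new intergenic loci. At an unadjusted p under 0.05 in edgeR there were 199 known intergenic loci (26.6%), against 21.7% of all loci. The filter had passed 30.7% of the known intergenic loci. The other 1685 were left out by the filter. They had at most 60 counts over the 5 libraries, and tested loci had at least 26, so the 2 ranges overlap. With no filter 1519 were tested, and 38 rose and 30 fell (edgeR).

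All 36 that rose were higher in every triptolide library than in both controls, and all 29 that fell were lower in every one. Of all 6888 loci 38% had groups that did not overlap, and of the 747 it was 43.6%. Rises ranged from 1.59-fold to 8.46-fold with a median of 2.30-fold, and falls from 1.56-fold to 5.14-fold with a median of 2.14-fold. Calls came in each of 4 equal parts by mean CPM, but least in the lowest. Of its 187 loci, at 5.21 to 21.1 CPM, 2.67% rose and 1.60% fell. In the parts above, from low to high, 5.88%, 4.84% and 5.88% rose and 4.81%, 4.30% and 4.81% fell. Of the 289 tested loci at 100 CPM or more, 17 rose and 13 fell. The number of calls leaned on single libraries. With control 1, triptolide A or triptolide 3 left out, the rises numbered 19, 20 and 16 and the falls 15, 12 and 14. Of the 65, 10 rises and 6 falls passed with each library left out in turn, and none changed sign. DESeq2 called 22 rises, all among the 36.

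**Figure D2:**
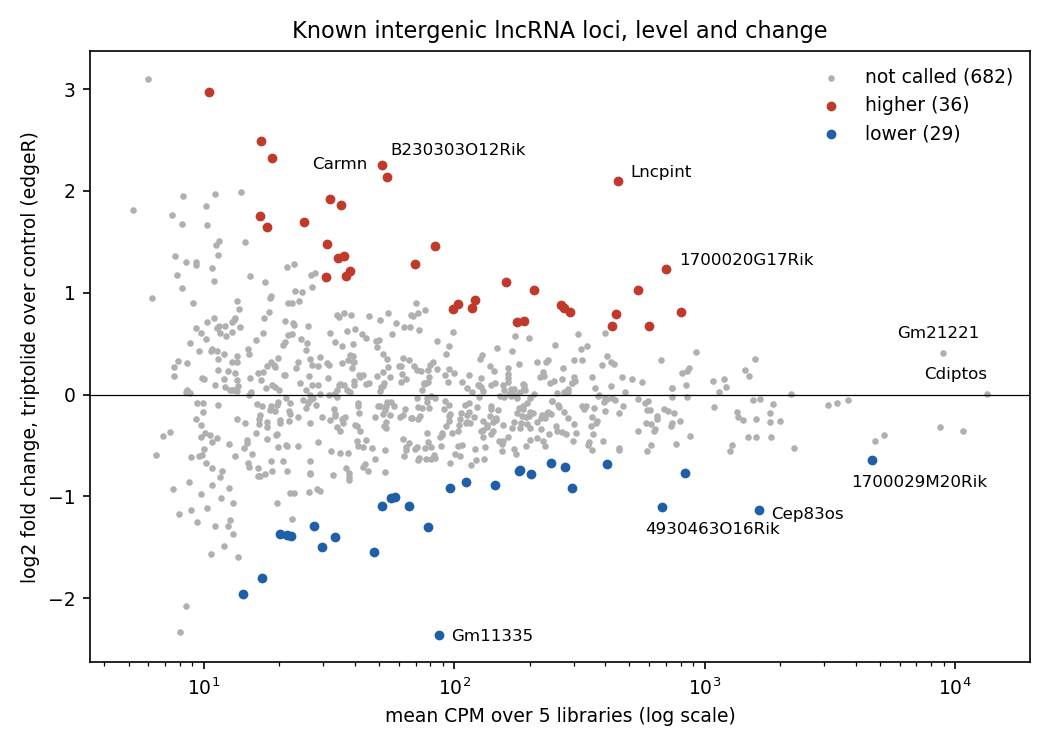
Log2 fold change (triptolide over control, edgeR) against mean CPM over 5 libraries, on a log axis, for the 747 known intergenic loci tested. Red points are the 36 that rose, blue points the 29 that fell and grey points the 682 not called. Calls are seen from A230028O05Rik, at 10.5 CPM, to 1700029M20Rik on the right.

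On a list made up mostly of studied lncRNAs, Lncpint, Carmn and Firre rose and Cep83os fell. The list held 48 names, of which 10 were known intergenic loci here and 6 passed the filter and were tested. Of these 6, 50.0% rose and 16.7% fell, where 5.01% rose and 2.26% fell over all lncRNA loci. The list, Cep83os included, was drawn up with earlier results of these data known. Its shares are therefore no measure of how studied lncRNAs respond. Carmn, a lncRNA of smooth muscle and heart precursors next to the miR-143/145 cluster (chromosome 18, 61649625 to 61665537), measured 15.5 and 19.6 CPM in the controls and 82.3, 62.4 and 88.4 CPM after triptolide. Every triptolide library was more than 3 times above both controls. It rose 4.42-fold (log2 fold change 2.13 ± 0.33 SE, adjusted p = 9.7e-05, edgeR), and passed with any 1 library left out. Both of its 2 transcripts were higher in all triptolide libraries, 5.48-fold and 3.32-fold. In a bulk sample, a change in the number of cells of a type and a change of RNA per cell cannot be told apart. Acta2 and Myh11, which mark smooth muscle, hosted no circRNA, so the part of muscle cells in this rise was not tested.

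Lncpint, induced by p53 (chromosome 6, 31159841 to 31218346), measured 161 and 145 CPM in the controls and 654, 535 and 763 CPM after triptolide. It rose 4.26-fold (log2 fold change 2.10 ± 0.21 SE, adjusted p = 1.8e-07, edgeR). Its 2 transcripts of at least 10 CPM moved alike, by 4.48-fold and 3.97-fold. It was the only known intergenic locus on the list of p53 or DNA damage lncRNAs. Firre, an X-linked nuclear lncRNA with repeats that helps position the X chromosome (chromosome X, 50555744 to 50635321), measured 109 and 49.5 CPM in the controls and 174, 110 and 164 CPM after triptolide. The groups all but touch, with control 1 at 108.8 and triptolide B at 109.6 CPM. Its log2 fold change of 0.93 ± 0.27 SE (adjusted p = 0.032, edgeR) was 1.57 without control 1. The adjusted p rose to 0.37 when control 2 was left out, to 0.13 for either triptolide A or triptolide 3, and to 0.073 with DESeq2.

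The imprinted and X-inactivation list had 4 known intergenic loci, and of the 3 tested Firre rose and 0 fell. Over all lncRNA loci 5.01% rose and 2.26% fell, and lists this short cannot be told from those shares. Mirg, a host of many miRNAs in the imprinted Dlk1-Dio3 region (chromosome 12), averaged 408 ± 110 CPM in the controls and 395 ± 110 CPM after triptolide (adjusted p = 0.94, edgeR). H19, the maternally expressed lncRNA beside Igf2 (chromosome 7), averaged 11.2 ± 2.6 and 7.35 ± 2.8 CPM (adjusted p = 0.65, edgeR). Jpx, an activator of Xist, did not pass the filter, at 4.15 and 5.60 CPM in the controls and 2.11, 3.78 and 5.83 CPM after triptolide. So were Tunar and Lockd, and Mhrt, a heart lncRNA, had 0 counts in all 5 libraries. Of the snoRNA hosts only Snhg15 was tested, at 3.79 ± 3.9 and 14.4 CPM on average in control and triptolide (adjusted p = 0.12, edgeR). Its groups did not overlap, but counts were few, at 1 and 7 in control and 11, 17 and 16 in triptolide A, B and 3. Of the miRNA hosts, 2 were tested and 0 passed. Mir9-3hg, the host of miR-9-3, averaged 252 CPM in the controls and 280.1 CPM after triptolide (adjusted p = 0.70, edgeR), and Mir124-2hg 13.2 and 5.98 CPM (adjusted p = 0.32, edgeR). The groups of Mir124-2hg did not overlap, on 12 and 15 counts in control and 7, 5 and 6 in triptolide A, B and 3.

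Beyond that list, rises that passed with any 1 library left out were seen at B230303O12Rik, 1700020G17Rik, Gm28818, Gm27211 and 2900076A07Rik, and at 3 loci outside the rule for naming, Gm13850, Gm26853 and 2310015A10Rik, named after their values were seen. These have provisional names and are described by place and level. The last 3 rose 1.80-fold, 2.04-fold and 2.15-fold (adjusted p of 0.0059, 0.0030 and 0.0015, edgeR). B230303O12Rik (chromosome 5, 146188620 to 146194809), which overlaps the span of 1700001J03Rik, measured 19.7 and 12.1 CPM in the controls and 76.0, 53.9 and 96.2 CPM after triptolide. That is a 4.73-fold rise (adjusted p = 0.00013, edgeR). 1700020G17Rik (chromosome 10, 110798743 to 110822741), 11358 bases from E2f7, a repressor of the cell cycle, measured 418 and 358 CPM in the controls. After triptolide it measured 881, 812 and 1038 CPM, 2.35-fold higher (adjusted p = 7.7e-05, edgeR).

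Gm28818 (chromosome 1, 71894068 to 71917125) measured 43.8 and 38.3 CPM in the controls and 133, 101 and 104 CPM after triptolide, a 2.74-fold rise. Gm27211 (chromosome 9, 73192483 to 73342214) had nearly equal controls, 333 and 337 CPM, and 660, 608 and 780 CPM after triptolide, a 2.04-fold rise. At 2900076A07Rik (chromosome 7, 81523550 to 81529590) the triptolide libraries lay close together, at 46.6, 43.2 and 45.7 CPM, against 14.5 and 9.59 CPM in the controls. Adjusted p was 0.00075, 0.00082 and 0.0016 for these 3 in edgeR. Some counts at Gm28818, Gm27211 and 2900076A07Rik were not whole, by up to 0.25, 0.44 and 0.31 of a count, so reads there had been divided between features. The same held at Gm13850 and Gm26853, by up to 0.37 and 0.30. Of the 36 rises 14 had a count off a whole number by over 0.1, against 2 of the 29 falls and 80 of the 747 tested, and these are uncertain where reads are shared with a copy. The 2 falls were 4930463O16Rik and Bloc1s6os, by up to 0.24 and 0.31.

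The 3 largest folds among rises, and that of the Fignl1 locus, came with few counts. A230028O05Rik (chromosome 16, 25057765 to 25069058) had 1 and 3 counts in control and 16, 10 and 23 in triptolide, or 1.92 ± 1.2 and 16.2 ± 6.5 CPM, 8.46-fold higher. Gm26583 (chromosome 12) averaged 4.30 ± 3.2 and 25.3 ± 7.5 CPM, 5.88-fold higher. Gm15892 (chromosome 11), 722 bases from the zinc finger gene Vezf1, averaged 5.49 ± 2.5 and 27.6 ± 9.2 CPM, 5.02-fold higher. The Fignl1 locus averaged 10.5 ± 9.0 and 35.0 ± 4.8 CPM, 3.34-fold higher. These 4 leaned on single libraries in edgeR. A230028O05Rik had an adjusted p of 0.13 without control 1, a log2 fold change of 3.85 in place of 2.98 without control 2, and was not tested without triptolide A or 3. For Gm26583 the adjusted p was 0.068 without control 1, and its log2 fold change of 2.49 was 3.57 without control 2. Gm15892 had an adjusted p of 0.056 without triptolide 3. For Fignl1 it was 0.27 without control 1 and 0.094 without triptolide 3, and its log2 fold change of 1.70 was 1.03 without control 1 and 3.08 without control 2. DESeq2 gave Fignl1 an adjusted p of 0.0504.

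On chromosome Y 371 loci were known intergenic, the most of any chromosome, yet only 13 passed the filter and were tested. Of these, 2 rose and 1 fell, where 5.01% rose and 2.26% fell over all lncRNA loci. With 13 loci tested, no excess on this chromosome is claimed. Gm28427 (41378380 to 41385771) fell from 64.3 and 93.4 CPM in the controls to 28.5, 35.9 and 16.5 CPM after triptolide, 2.92-fold lower (adjusted p = 0.0021, edgeR), and passed with any 1 library left out. Gm29215 (40367680 to 40371741) rose from 5.18 and 8.40 CPM to 21.1, 16.1 and 33.0 CPM. Gm29373 (47831932 to 47835165) measured 28.3 and 0 CPM in the controls and 60.1, 33.2 and 54.6 CPM after triptolide, so its controls disagree. The adjusted p of Gm29215 in edgeR was 0.21 with control 1 left out, 0.075 with triptolide A left out and 0.20 with triptolide 3 left out. That of Gm29373 was 0.25 without control 2 and 0.15 without triptolide 3, and its log2 fold change of 1.86 was 0.85 without control 2 and 8.66 without control 1, where the control left is at 0. DESeq2 gave adjusted p of 0.10 for Gm29215 and 0.69 for Gm29373. The mouse Y chromosome carries many near-identical copies of its genes, so the assignment of reads to any 1 of these loci is uncertain.

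Among falls, Gm11335 changed most and Cep83os and 1700029M20Rik were the most abundant. Gm11335 (chromosome 13, 23526812 to 23530943), 100 bases from the histone gene H4c8, measured 169 and 166 CPM in the controls and 32.7, 36.9 and 28.2 CPM after triptolide. It fell 5.14-fold (adjusted p = 1.8e-07, edgeR). Of its 4 transcripts, 3 were lower in every triptolide library. Cep83os (chromosome 10, 94673493 to 94688613), 10 bases from the centriole gene Cep83, measured 2398 and 2477 CPM in the controls and 1055, 1172 and 1097 CPM after triptolide. It fell 2.20-fold (log2 fold change -1.14 ± 0.16 SE, adjusted p = 3.1e-05, edgeR), with little spread within either group.

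1700029M20Rik (chromosome 4, 135625765 to 135630198) measured 5752 and 6139 CPM in the controls and 3820, 3516 and 4067 CPM after triptolide. It fell 1.56-fold, the smallest fold among the falls (log2 fold change -0.64 ± 0.16 SE, adjusted p = 0.0095, edgeR). The fall was uneven over its transcripts. A 3-exon transcript, TCONS_00221326, averaged 1854 CPM in the controls and 841 CPM after triptolide with no overlap. TCONS_00221329, at 1104 and 763 CPM, and TCONS_00221331, at 25.6 and 13.0 CPM, were also lower with no overlap. The most abundant, TCONS_00221328, averaged 2404 and 1798 CPM and overlapped, as did TCONS_00221324 and TCONS_00221327. The adjusted p of the locus was 0.054 without control 2 and 0.064 without triptolide A.

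4930463O16Rik (chromosome 10, 84487388 to 84499779) fell 2.15-fold, from 870 and 1122 CPM in the controls to 451, 437 and 499 CPM after triptolide. Of its 5 transcripts, 4 were lower in every triptolide library. 2610035D17Rik (chromosome 11, 113043895 to 113201838) fell 2.45-fold, from 118 and 126 CPM to 60.2, 44.4 and 44.7 CPM. 4930471D02Rik (chromosome 10, 93897158 to 93906422), 67 bases from the methionine aminopeptidase gene Metap2, fell 1.89-fold, from 473 and 349 CPM to 218, 238 and 194 CPM. Within this last locus the main transcript, TCONS_00029619, fell in step with the sum, at 384 and 174 CPM on average, while TCONS_00029617 was higher in every triptolide library, at 15.6 and 27.0 CPM. The adjusted p of 4930471D02Rik was 0.084 without control 1 (edgeR).

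**Figure D3:**
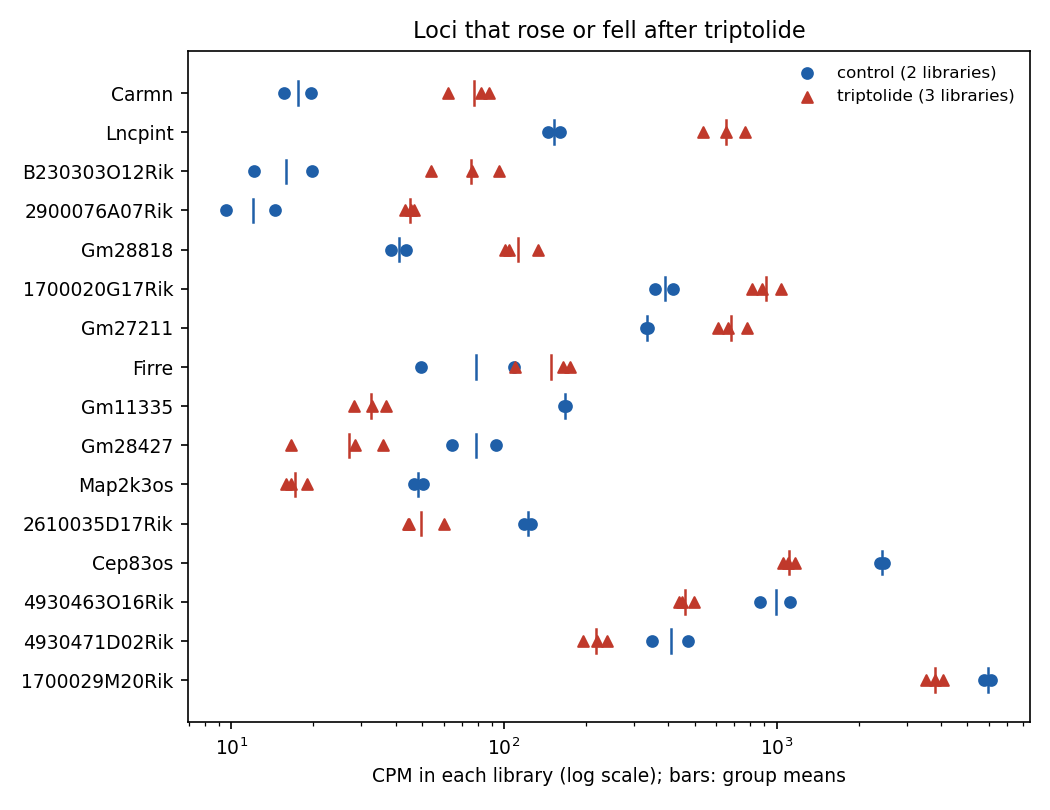
CPM in each library on a log axis for 16 loci that rose or fell, with circles for control, triangles for triptolide and bars for group means. The first 8 loci lie higher in all triptolide libraries, with Firre at the narrowest gap, and the last 8 lie lower.

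The other named falls were at loci with control means of 26 to 53.4 CPM. Gm9951 (chromosome 8) measured 35.2 and 16.8 CPM in the controls and 4.22, 9.45 and 5.83 CPM after triptolide, 4-fold lower, and Gm15389 (chromosome 1) 30.1 ± 4.3 and 8.46 ± 4.1 CPM, 3.56-fold lower. Gm28881 (chromosome 10), Gm37041 (chromosome 3), Gm11934 (chromosome 4) and Gm20732 (chromosome 15) fell 2.69-fold, 2.65-fold, 2.65-fold and 2.58-fold. All 6 failed with some single library left out in edgeR. Without control 1 the adjusted p was 0.46 for Gm9951, 0.13 for Gm15389, 0.33 for Gm28881, 0.25 for Gm37041, 0.69 for Gm11934 and 0.080 for Gm20732. The log2 fold change of Gm9951 was then -1.37 in place of -1.96, and that of Gm11934 -0.62 in place of -1.38. Without triptolide A it was 0.077, 0.057, 0.090, 0.12, 0.084 and 0.056 in the same order. Without triptolide 3 it was 0.074, 0.069, 0.092 and 0.085 for Gm9951, Gm15389, Gm11934 and Gm20732, without triptolide B 0.089, 0.12 and 0.12 for Gm37041, Gm11934 and Gm20732, and without control 2 0.23 for Gm20732. Gm20732 and Gm11934 did not pass with DESeq2 or limma either (adjusted p of 0.13 and 0.14 with DESeq2, 0.0505 and 0.0843 with limma), nor in edgeR when loci needed a mean count of 10 (0.0509 and 0.0535). Gm9951 and Gm37041 had 0.056 and 0.11 with DESeq2.

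Loci named for the strand opposite a coding gene numbered 36, of which 24 were tested. Here 1 rose (4.17%), 3 fell (12.5%) and 20 did not pass, where 5.01% rose and 2.26% fell over all loci. The median log2 fold change was -0.12, against -0.05 over all 747. Beside Cep83os, the falls were Map2k3os and Bloc1s6os. Map2k3os, 186 bases from the p38 MAP kinase kinase gene Map2k3 (chromosome 11, 60920917 to 60931867), measured 46.6 and 50.4 CPM in the controls and 15.8, 18.9 and 16.5 CPM after triptolide. It fell 2.84-fold (adjusted p = 0.0050, edgeR). Bloc1s6os, 142 bases from Bloc1s6, a gene of lysosome-related organelles (chromosome 2), fell from 173 and 132 CPM to 84.5, 73.7 and 93.2 CPM. Fam120aos, 226 bases from the RNA-binding protein gene Fam120a (chromosome 13), rose from 165 and 94.3 CPM to 213, 206 and 215 CPM. Bloc1s6os had an adjusted p of 0.23 without control 1 and 0.064 without triptolide A, and Fam120aos of 0.46 when control 2 was dropped, 0.14 when triptolide A was dropped and 0.11 when triptolide 3 was dropped (edgeR).

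A place close to a coding gene was common in general. Of the 747 tested loci, 58 overlapped the span of a coding gene in the RefSeq table and 142 more lay within 1000 bases of one, 26.8% together. Of the 36 rises 9 did, 4 by overlap, and of the 29 falls 10 did, 0 by overlap. The neighbouring mRNAs could not be followed, since the mRNA table pairs no transcript with a gene. No 2 called known intergenic loci lay within 50 kb of each other.

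By kind of name, the shares that rose or fell can be set beside the 5.01% and 2.26% over all loci. Among the 273 tested with a testis clone name 6 rose and 7 fell, 2.20% and 2.56%, with a median log2 fold change of -0.14. Among the 85 with other RIKEN names 5 rose and 2 fell, 5.88% and 2.35%, with a median of 0.06. Among the 318 with Gm names 19 rose and 15 fell, 5.97% and 4.72%, with a median of 0.05. Among the 43 with other names 5 rose and 2 fell, 11.6% and 4.65%. The testis clone loci were also more abundant, with a median of 118 CPM against 37.2 CPM for other RIKEN names and 37.8 CPM for Gm names, and these differences were not tested.

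Rises were most frequent among loci with long transcripts. Loci were split into 4 equal parts by the effective length of their leading transcript. In the part of 1554 bases or more, 20 of 187 loci rose (10.7%) and 9 fell (4.81%). In the 3 parts below, 7, 3 and 6 rose, from shortest to longest, and 6, 7 and 7 fell. The longest part holds Lncpint, with an effective length of 13939 bases, 1700020G17Rik with 8626 and Gm27211 with 5580, and also Cep83os with 3853 and 4930463O16Rik with 6139 among falls. Median log2 fold changes were -0.07, -0.11, -0.05 and 0.06 from shortest to longest. Within the same bounds, lncRNA loci other than known intergenic showed the same shape, with 10.9% of 1832 rising in the longest range and 3.70%, 2.04% and 2.36% in the others. Over the 747 loci, length and log2 fold change were only weakly related (Spearman's rho 0.09, across loci that share the same 5 libraries). Genomic span, introns included, showed no such tilt, with 11 rises in the longest of 4 parts and 11 in the second. A longer transcript gives more reads at a given level, and shorter fragments weigh most on short transcripts. The part of either was not tested.

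**Figure D4:**
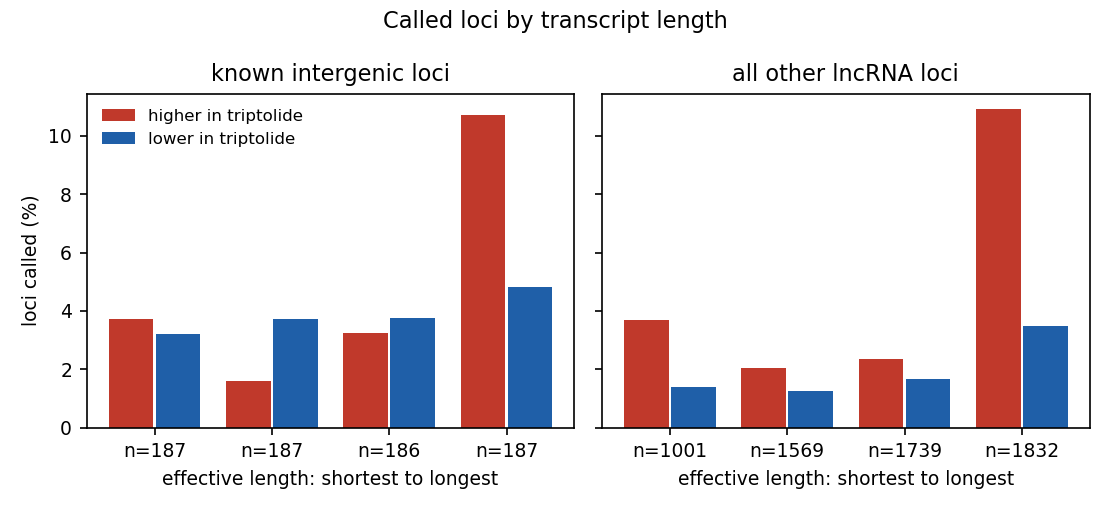
Share of tested loci called higher (red) or lower (blue) in triptolide, in percent, by effective length of the leading transcript, for known intergenic loci in 4 equal parts and for all other lncRNA loci within the same bounds. In both panels rises are most frequent in the longest range, 10.7% and 10.9%.

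Transcripts within a called locus did not always move together. Of the 65 called loci, 26 had at least 2 transcripts with a mean of 10 CPM or more. In 5 of these, all such transcripts stood apart between the groups in the direction of the locus, among them Carmn and Lncpint. In 2, a transcript stood apart in the opposite direction: 4930471D02Rik, given above, and 1700054A03Rik (chromosome 19), singled out after its values were seen, with an adjusted p of 0.0072 that was 0.12 without control 1 (edgeR). At 1700054A03Rik, which rose from 306 ± 35 to 531 ± 20 CPM (SD), TCONS_00161638 averaged 31.1 and 143 CPM and TCONS_00161634 averaged 62.8 and 16.6 CPM. Expected counts of overlapping transcripts share reads, so single transcripts are less certain than the sum over a locus.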

How the data were processed

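RNA from mouse testis had been depleted of ribosomal RNA and sequenced from strand-specific libraries as read pairs, per the labels' protocols. HISAT2 2.0.1, HTSeq 0.6.1, DESeq and bedtools 2.17.0 are named, per the submitters' processing notes, with no role. No source used here gives the strand setting of the counting. Those notes name the human build hg19, but 1207 of 1232 loci (98.0%) overlapped the gene of their symbol in the RefSeq table for GRCm38.p6, so the coordinates are mouse and are printed as deposited. Names were assigned by Ensembl ID, and RefSeq served for the class of gene, neighbours and promoters. Of 2430 Ensembl IDs at these loci 2393 had a symbol.

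The authors deposited expected counts per assembled transcript, per the file headers, and FPKM beside them. The ratio of count to FPKM differed between libraries by a constant length (2147 transcripts). The column headed triptolide 1 FPKM has this tie only with the counts of triptolide A (interquartile range 0.132 bases, against 504 and 450 with the other triptolide counts). Triptolide 2 FPKM was not used, since 2 count columns are headed triptolide 2. The deposited circRNA score is SRPBM, by name, rounded to whole numbers, and 3 of its triptolide columns share a header. The mRNA table was not used.

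Counts were summed per locus, rounded and tested with edgeR 4.0.16 in R 4.3.3 (filterByExpr, TMM, quasi-likelihood F test, Benjamini-Hochberg over all lncRNA loci, threshold 0.05). Standard errors come from the F statistic. DESeq2 1.42.0 and limma 3.58.1 were alternatives, and the fit was tested on simulated data. Loci named are the 8 most abundant, the 10 largest rises and 10 largest falls that passed without overlap and with at least 5 CPM in the higher group, the 6 smallest p in each direction, members of a list of studied lncRNAs, and called pairs within 50 kb. Members and lists were chosen with earlier results of these data known. The requirement that a promoter start lie within 1000 bases of the locus was added after the values were seen.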

Additional observations from a re-analysis of the deposited data

How the results depend on the processing

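The counts of 36 rises and 29 falls came to 22 and 25 with DESeq2, 41 and 28 with limma, 38 and 31 without TMM scaling, 31 and 29 with DESeq2's size factors in edgeR, 38 and 30 with no filter, 33 and 27 with a mean count of at least 10, and 53 and 32 when fitted on the known intergenic loci alone. With 1 library left out the rises ranged from 16 to 42 and the falls from 12 to 33, and the lowest counts came without triptolide 3 and triptolide A. The difference in share of lncRNA counts, 1.67 percentage points, was 1.69 without the most abundant locus, 1.45 on FPKM (without triptolide B) and 1.36 to 2.03 with 1 library left out. Of named loci that passed, none changed sign. Of those that did not pass, 4 did. The log2 fold change of Cdiptos (0.0070) was -0.0012 with DESeq2 and with its size factors in edgeR, -0.0078 with limma, and -0.097 to 0.13 with 1 library left out. That of Mirg (-0.038) was -0.30 to 0.24, that of Gm15104 (-0.053) was -0.12 to 0.032, and that of Gm26917 (-0.46) was -1.06 to 0.61 with 1 library left out, the last with an adjusted p of 1.8e-06 without control 1 and 0.048 without control 2, in opposite directions (edgeR). Gm21221 passed without triptolide B (0.52, adjusted p = 0.036, edgeR). No paired analysis was possible because the headers of the count columns share at most 1 replicate number between the groups, number 2. That number stands over 2 triptolide columns. The FPKM tie of triptolide A to the header triptolide 1 does not supply pairs. The sample titles only number the libraries and do not state that equal numbers mark paired mice. With 2 and 3 libraries of about 1000000 lncRNA counts each, the known intergenic loci not tested had at most 60 counts over all libraries. Those tested had at least 26.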
